A study of Rattus norvegicus with 9 samples.

Results

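Assembled transcripts that run through an annotated intron were described in RNA of CD4+ T cells from the blood of SD rats. A transcript was chosen where the submitters' assembly had built it from the reads, its locus carried a single reference gene name, the locus averaged at least 5 TPM over the 9 libraries (TPM is a length-corrected level relative to all transcripts of a library), and 1 of its exons spanned a whole intron of a reference transcript of the same locus and strand. The rule found 7662 such transcripts, called intron-covering here, among 39026 assembled and 80092 listed transcripts, in 2701 of the 7449 loci of 1 name at that level. The rule did not use the groups. Of the members, 5342 averaged at least 1 TPM, 5313 also had at least 1 TPM in the rest of their locus and could be tested for their share, and 38 were listed at 0 in every library. Just inside the locus limit lay Spon2 with 5.04 TPM and just outside it Ogg1 with 4.99 TPM.

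The rats were 8 to 10 weeks old and formed 3 groups of 3 libraries. The first was labelled normal, with no further word. The second was labelled model and was read as rats with CIA, a name for collagen-induced arthritis, and the third was labelled combination and was read as such rats that had received a combination of herbal compounds, not named in the labels, over 4 weeks. It is not stated whether the 3 libraries of a group stem from different animals, so p-values measure only the spread between these libraries, which may be technical. The headers of the combination files carry other sample names than the labels, whose groups were used. T cell markers were abundant in all 9 libraries, with Cd3e at 228 to 434 TPM and Cd4 at 76.5 to 235 TPM. Cd8a was at 2.47 to 9.17 TPM and the B cell gene Cd79a at 1.48 to 11.2 TPM. The haemoglobin gene Hba-a2 was at 43.05 to 786 TPM in the normal, 1671 to 10920 TPM in the model and 183 to 601 TPM in the combination libraries. In the model libraries it thus lay above Cd3e and Cd4. Aligned depth was 7.52 to 10.1 gigabases, and read counts were not derived, so no counting error is given.

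Introns are removed from a precursor RNA by the spliceosome, and an intron that is kept can hold the RNA in the nucleus or bring in a premature stop codon, which exposes the RNA to nonsense-mediated decay. Genes of splicing factors themselves are known for such introns, and lymphocytes are known to change the retention of many introns on activation. In an assembly from short reads, a covering exon can also stem from precursor RNA, from an unannotated exon or from the reads of an overlapping gene, and these were not told apart here.

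The 7662 transcripts covered 5176 different introns, 14.0% of the 36980 reference introns of their loci. Covered introns had a median length of 493 bases (quartiles 163 and 1287), and the introns of the same loci that were not covered had one of 1014 bases (quartiles 321 and 2443). The last intron of a transcript made up 13.6% of covered and 7.50% of other introns, and the first intron 11.9% and 8.35%. Most of the transcripts, 5212, covered 1 intron, while 2176 covered 2 or 3 and 274 more than 3, with 14 at most. The covering exon was internal in 5616 transcripts, the first in 1139, the last in 1426 and the only exon in 40, and 1 transcript could count under several. The members were long, with a median of 4516 bases against 3282 for the other assembled transcripts and 2190 for the reference transcripts of the same loci. Some introns were doubtful as such: 113 were shorter than 60 bases, 217 were also covered by a reference exon and 117 were overlapped by an exon of another locus.

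**Figure D1:**
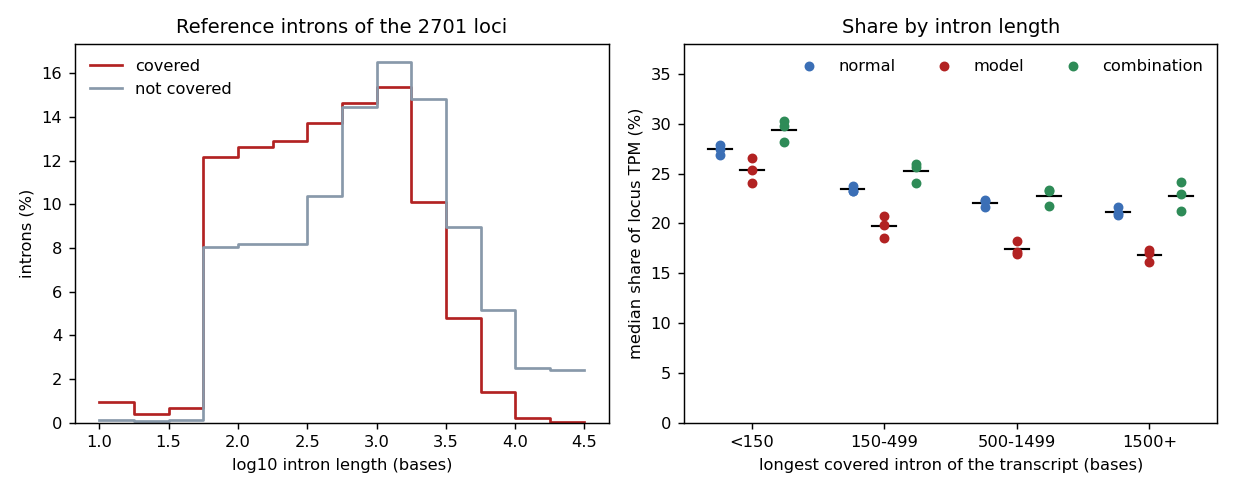
Left, distribution of the log10 length in bases of covered and not covered reference introns of the 2701 loci, in percent of each kind, with longer and shorter introns put in the end bins; the covered introns lie to the left. Right, median over loci of the share of locus TPM in transcripts whose longest covered intron falls in 4 length bands; points are the 9 libraries by group and lines the group means, and the model means are the lowest in each band.

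Intron-covering transcripts held a smaller share of the RNA of their loci in the model group than in the normal and combination groups. Of the summed TPM of the 2701 loci they held 29.8%, 28.3% and 27.1% in normal replicates 1, 2 and 3, 23.5%, 25.3% and 24.9% in the model replicates, and 30.4%, 29.3% and 28.1% in the combination replicates. All 3 model libraries lay below all 6 others, and the normal and combination libraries overlapped. The means were 28.4% ± 1.34, 24.6% ± 0.951 and 29.3% ± 1.17 (SD, n = 3). The model mean was 3.85 points below the normal mean and the combination mean 4.72 points above the model mean (exact two-sided permutation p = 0.1 for each, the smallest that 3 against 3 libraries can give). Combination and normal means differed by 0.868 points (exact permutation p = 0.5). The first 2 of these differences share the model libraries, so a low model value enters both.

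The pattern was larger in the typical locus, where each locus counts alike. The median share over loci was 32.3%, 32.6% and 31.2% in the normal, 25.2%, 26.5% and 27.4% in the model and 35.0%, 32.2% and 34.4% in the combination libraries. The model median was 5.71 points below the normal and 7.56 points below the combination median (exact permutation p = 0.1 for each). In bulk RNA, a different mix of cells and a different share within each cell cannot be told apart.

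Assembled transcripts of the same loci that covered no intron did not follow this course. Present in 1876 of the loci, they had a median share of 30.9% ± 1.06 in the normal, 34.7% ± 0.587 in the model and 31.9% ± 0.359 in the combination group (SD, n = 3), 3.79 points higher in the model than in the normal group (exact permutation p = 0.1). Reference transcripts had medians of 30.9% ± 1.27, 32.4% ± 0.523 and 27.2% ± 1.17, so that their share was the lowest in the combination group. The shares of a locus add up to its whole, so a lower share of members goes with a higher share of the rest. In 3297 loci with assembled transcripts but no member, these had median shares of 56.3% ± 0.612, 57.7% ± 1.15 and 58.6% ± 0.594 (SD, n = 3). Model and normal libraries overlapped there (exact permutation p = 0.3). The share of all TPM in intron-covering transcripts was 3.54% to 5.10% and overlapped between the groups (exact permutation p = 0.6 for model against normal).

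**Figure D2:**
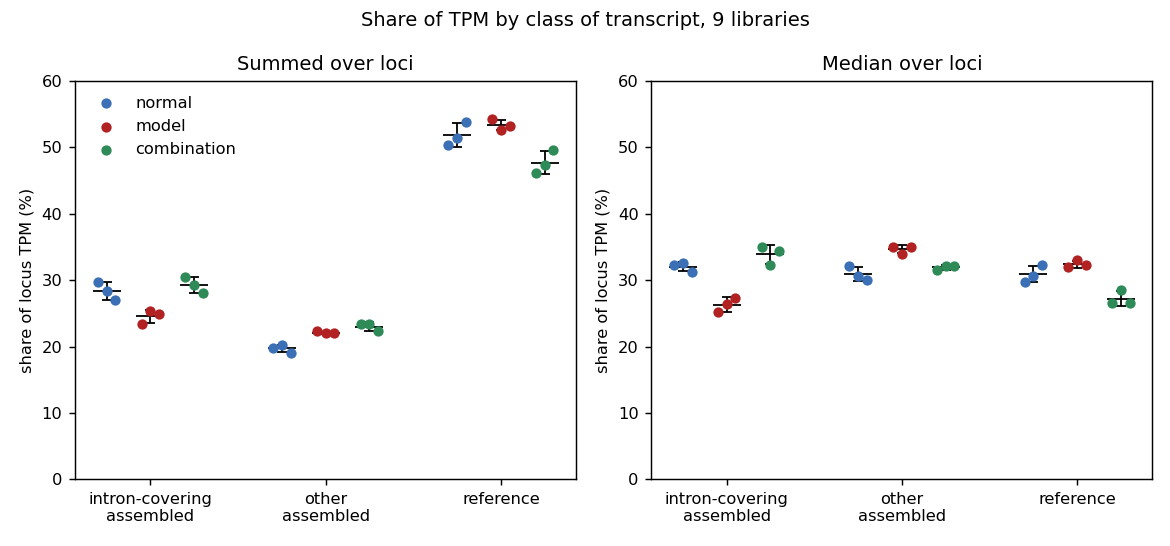
Share of locus TPM in percent held by intron-covering assembled, other assembled and reference transcripts of the 2701 loci, summed over loci (left) and as the median over loci (right; other assembled over the 1876 loci that hold them). Points are libraries, black bars the group mean ± SD (n = 3); the intron-covering shares of the model libraries, 23.5% to 25.3% on the left, lie below those of all others.

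In the typical locus the model share was the lowest for short and long covered introns alike. For transcripts whose longest covered intron was under 150 bases, the median share over loci was 27.4% ± 0.503 in the normal, 25.3% ± 1.23 in the model and 29.4% ± 1.08 in the combination group. For introns of 1500 bases or more it was 21.2% ± 0.43, 16.8% ± 0.641 and 22.8% ± 1.46. In both bands the 3 model libraries lay below the 6 others (exact permutation p = 0.1 for each comparison with the model group). As a share of summed TPM, where abundant loci weigh more, the bands were less even. Under 150 bases it was 9.36% ± 0.981, 7.72% ± 0.451 and 8.19% ± 0.815 (SD, n = 3), with model and combination libraries overlapping (exact permutation p = 0.7). From 150 to under 500 bases it was 7.46% ± 0.534, 6.65% ± 0.696 and 7.76% ± 0.171, and for 1500 bases or more 4.498% ± 0.216, 4.03% ± 0.388 and 5.62% ± 0.383, with normal and model libraries overlapping in both (exact permutation p = 0.3). Transcripts that covered 1 intron had medians of 24.4%, 20.1% and 25.2%, those with 2 or 3 covered introns 17.9%, 14.3% and 20.1%, and those with more than 3 covered introns 13.9%, 12.0% and 15.99%. By the position of the covering exon, the model medians were the lowest for spliced transcripts, with 21.6%, 17.6% and 23.5% for first exons, 28.7%, 23.6% and 29.9% for internal exons and 21.7%, 17.8% and 22.5% for last exons. For the 40 transcripts of a single exon the medians over 39 loci were 74.9%, 64.5% and 73.0%, with overlap of model and combination libraries (exact permutation p = 0.4), and their shares of summed TPM were 2.38%, 1.71% and 1.26%, the lowest in the combination group.

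Some measures of the libraries differed between the groups as the share did. The percent of aligned bases in listed transcripts was 87.6%, 87.8% and 88.3% in the normal, 89.0%, 88.8% and 88.6% in the model and 86.7%, 87.4% and 87.6% in the combination libraries, so it was highest where the intron-covering share was lowest. The 12 marker loci of cytotoxic and NK cells summed to 102 to 163 TPM, 51.7 to 74.95 TPM and 82.5 to 110.0 TPM, so the model libraries lay below the 6 others, as for the share. The 10 erythroid marker loci summed to 79.5 to 1145 TPM in the normal, 2428 to 16240 TPM in the model and 280 to 887 TPM in the combination libraries, the highest in the model group. In the other lists the model libraries did not lie apart from both other groups. The 17 marker loci of monocytes and neutrophils summed to 120 to 320 TPM, 125 to 288 TPM and 463 to 819 TPM, the 10 of platelets to 16.1 to 42.1 TPM, 27.7 to 50.6 TPM and 107 to 167 TPM, and the 22 of T cells to 4343 to 5296 TPM, 3186 to 4312 TPM and 4044 to 4486 TPM. The T cell sums of the model libraries thus lay below all normal ones and overlapped the combination ones. The 10 marker loci of B cells summed to 10.9 to 39.2 TPM, 6.905 to 15.65 TPM and 11.5 to 21.4 TPM, with overlap between all groups. No marker locus of these lists was at 0 in all libraries, and the part of other cells in the result was not tested. Few loci of the other-cell lists held a member: 1 erythroid locus with 3 members, 1 locus of monocytes and neutrophils, 3 of cytotoxic cells and none of platelets or B cells.

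Locus by locus, the summed share of the members was lower in the model than in the normal group in 1778 of 2512 loci tested and higher in 733. In 648 loci (25.8%) all 3 model libraries lay below all 3 normal libraries and in 90 (3.58%) above them, where 11.9% of all classes of transcripts in all tested loci lay entirely lower and 10.7% entirely higher. The other assembled transcripts of these loci lay entirely higher in 287 and entirely lower in 85 of 1746 loci. These counts are not independent of those of the members, as the shares of a locus add up to its whole. The log2 ratio of the members to the rest of the locus was tested in limma with Benjamini-Hochberg adjustment over 11685 classes. At an unadjusted p under 0.05, 467 loci were lower and 53 higher. Here and below, counts at an unadjusted p are given for members or listed genes only. They lack a count over all features and are not read as particular to those. Past the adjustment, 2 loci were lower, Sat1 and B4galt3, where 0.0171% of all classes were called lower, and 0 were higher, where 0.00856% were called higher. Without model replicate 2 the count in both directions was 19, where 81 of all 11685 classes were called. Without model replicate 1 it was 4, and without normal replicate 2 it was 0.

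Between combination and model the direction was the opposite. The share was higher in the combination group in 1931 of 2512 loci and lower in 581, and the libraries lay entirely higher in 746 loci (29.7%) and entirely lower in 45 (1.79%), against 11.6% and 10.6% of all classes. At an unadjusted p under 0.05 limma found 557 loci higher and 29 lower. Past the adjustment 5 were higher, Srsf1, Ndor1, Ilk, Zc3h7a and B4galt3, where 0.0685% of all classes were called higher, and 0 were lower, where 0.0599% were. Without model replicate 3 or combination replicate 1 the count of loci called higher was 0. Without combination replicate 2 it was 3, which no longer held Ilk, Zc3h7a or B4galt3. Without model replicate 2 the count was 8, where 29 of all 11685 classes were called in either direction.

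Combination and normal libraries differed less evenly. The share was higher in 1440 and lower in 1071 loci, entirely higher in 353 (14.1%) and entirely lower in 181 (7.21%), where 9.91% and 9.78% of all classes were. After adjustment by limma 3 loci were higher, Srsf1, Ndor1 and Nup155, where 0.103% of all classes were, and 2 lower, Sat1 and Zfp330, where 0.111% were. Without normal replicate 2 or combination replicate 1 there were 0 such calls in all and without normal replicate 1 there was 1, beside 195 loci higher and 87 lower at an unadjusted p under 0.05 with all libraries. In 392 of the 2512 loci the model libraries lay below both other groups without overlap and in 12 above both. No such count over all classes is given, so these counts are not read as particular to the members.

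**Figure D3:**
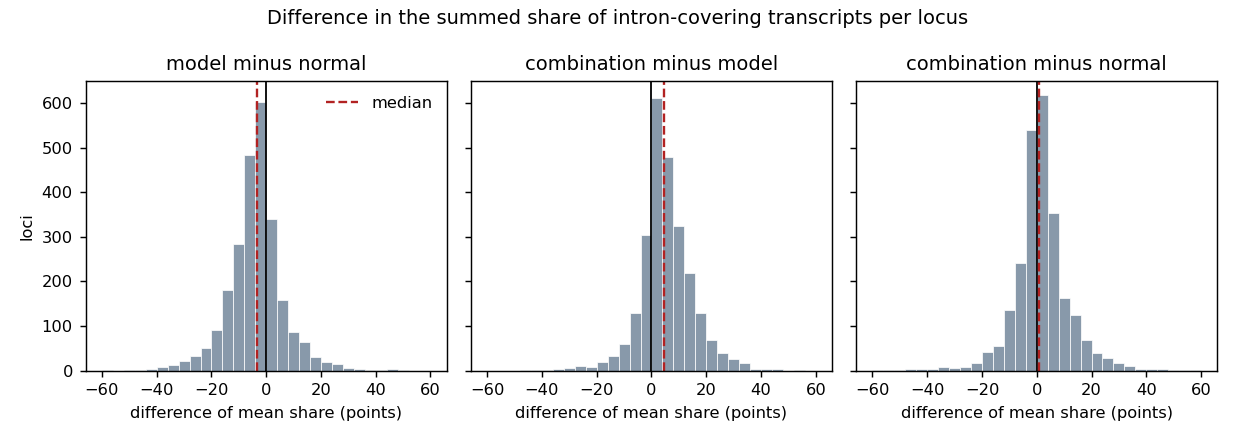
Number of loci by the difference of group means in the summed share of intron-covering transcripts, in percentage points, for the 3 comparisons over 2512 loci; differences beyond 60 points are in the end bins. The dashed line marks the median, at -3.42, 4.39 and 0.919 points, and the solid line marks 0.

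In the comparisons with the model group, most loci had the same direction of the share whether or not their own level was called. Among 164 loci of which the summed level rose in the model group by limma, the share of intron-covering transcripts was lower in 119, with a median difference of -4.5 points. It was lower in 23 of the 29 loci whose level fell, with a median difference of -5.12 points, and in 1636 of the 2319 loci not called, with one of -3.33 points. In the comparison of combination with model, the share was higher in 47 of 65 loci that rose, in 63 of 80 that fell and in 1821 of 2367 not called. Between combination and normal this was not so: the share was lower in 71 and higher in 66 of 137 loci that rose, with a median difference of -0.46 points, and higher in 39 of 56 that fell, with one of 2.36 points.

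Sat1, the enzyme that acetylates spermidine and spermine, had the largest fall called in log2 ratio. Its 1 member covered intron 3 of 5, of 1431 bases at chrX:43627346-43628776 (rn6), and held 36.4%, 44.0% and 39.5% of the locus TPM in the normal, 9.35%, 9.54% and 9.89% in the model and 18.5%, 12.2% and 16.8% in the combination libraries. The 3 groups did not overlap. The level of the member was 81.0 TPM in the normal and 38.5 TPM in the model group, while that of the whole locus was 204 and 400 TPM. The log2 ratio of the member to the rest was lower by 2.63 ± 0.226 (SE) in the model than in the normal group (limma with Benjamini-Hochberg, adjusted p = 0.0135, and 0.0748 without normal replicate 2). It was also lower in the combination than in the normal group, by 1.83 (adjusted p = 0.0322, and 0.0645 to 0.140 with any 1 of the 6 libraries left out).

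B4galt3, a galactosyltransferase of the Golgi, had 6 members among 9 transcripts, 4 of which covered intron 2 of 7 at chr13:89644904-89645207. They held 87.7%, 86.9% and 84.2% of the locus in the normal, 48.1%, 53.6% and 51.8% in the model and 77.7%, 77.3% and 76.0% in the combination libraries. The groups did not overlap, and the combination libraries lay between the others. The log2 ratio differed by -2.39 ± 0.204 between model and normal (adjusted p = 0.0135, and 0.0749 without normal replicate 2) and by 1.58 ± 0.204 between combination and model (adjusted p = 0.0499, and 0.0551 to 0.171 with any 1 library left out).

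Srsf1, the SR protein that promotes the use of splice sites, stood apart in the combination group. Its 13 members among 17 transcripts held 38.3%, 35.4% and 44.6% of the locus in the normal, 33.5%, 40.3% and 37.4% in the model and 79.5%, 73.6% and 82.1% in the combination libraries. Normal and model libraries overlapped and all 3 combination libraries lay above them. The level of the locus was 47.2, 40.0 and 41.6 TPM in the 3 groups, so the share and not the sum differed. The log2 ratio was higher by 2.56 ± 0.246 in the combination than in the model group (adjusted p = 0.0153, and at most 0.113, without model replicate 3 or combination replicate 1 above 0.05) and by 2.43 ± 0.246 than in the normal group (adjusted p = 0.0163, and above 0.05 without normal replicate 1 or 2 or combination replicate 1).

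The single transcripts of Srsf1 did not move together. A member that covered 2 introns, among them intron 2 at chr10:75336068-75336417, rose from 0.222 to 0.355 TPM in the model libraries to 8.30 to 14.9 TPM in the combination libraries, and its share of the locus from at most 0.968% to at least 20.2%. A member that covered the first intron alone, at chr10:75335464-75335882, fell from 6.19 to 6.88 TPM to 0.727 to 1.36 TPM. The 5 members that covered this first intron did not fall in sum. They held 16.7%, 16.4% and 19.0% of the locus in the model and 13.1%, 23.3% and 25.1% in the combination libraries, with overlap. In the fit of single transcripts by limma the log2 ratio of the member that rose differed by 4.14 (adjusted p = 0.0179) between combination and model. That of the member that fell differed by -2.46 (adjusted p = 0.0146). The first call was lost without model replicate 3 or combination replicate 1 (up to 0.0631) and the second without combination replicate 1 (0.052).

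Ndor1, an electron carrier in the assembly of iron-sulfur proteins, had 6 members whose summed share was 46.6%, 52.2% and 54.3% in the normal, 52.2%, 43.8% and 43.6% in the model and 90.8%, 86.2% and 88.1% in the combination libraries. All 3 combination libraries lay above the 6 others. The log2 ratio was higher by 2.86 ± 0.268 in the combination than in the model group (limma, adjusted p = 0.0153, and above 0.05 without model replicate 3 or combination replicate 1, 0.0681 at most). A member through the 76-base intron 7 at chr3:2468738-2468813 was at 0.0552 to 0.178 TPM in the model and 5.12 to 9.91 TPM in the combination libraries.

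In Ilk, the integrin-linked kinase, and Zc3h7a, a zinc finger protein, the combination group was the highest and the model group the lowest. The 13 members of Ilk held 54.8%, 57.1% and 54.0% of the locus in the normal, 43.4%, 35.0% and 39.9% in the model and 70.7%, 69.9% and 66.5% in the combination libraries. The 8 members of Zc3h7a held 57.7%, 57.9% and 57.3%, then 48.4%, 48.6% and 45.6%, then 72.7%, 67.7% and 72.5%. In both loci no 2 groups overlapped. Between combination and model the adjusted p of limma was 0.0216 for Ilk, up to 0.115 without model replicate 3 or combination replicates 1 or 2, and 0.0332 for Zc3h7a, which no longer passed with any 1 of the 6 libraries left out (0.0502 to 0.137).

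Nup155, a scaffold protein of the nuclear pore, went the other way from most loci. Its 1 member, which covered introns 13 and 14 of 34, held 32.5%, 40.7% and 37.9% of the locus in the normal, 80.9%, 88.2% and 79.4% in the model and 87.7%, 82.4% and 82.0% in the combination libraries. Model and combination libraries overlapped and lay above all normal ones. The log2 ratio was higher by 2.77 ± 0.308 in the combination than in the normal group (limma over classes, adjusted p = 0.0202, and 0.051 to 0.085 with any 1 library left out) and by 2.60 in the model than in the normal group, where it missed the threshold over classes (adjusted p = 0.0585) and passed it in the fit of single transcripts (adjusted p = 0.0463, and above 0.05 without normal replicates 1, 2 or 3 or model replicates 1 or 3, 0.103 at most). Zfp330 had 1 member with 34.5%, 38.9% and 36.4%, then 22.8%, 28.1% and 30.4%, then 16.1%, 12.7% and 15.5%, lower in the combination than in the normal group (adjusted p = 0.0322, and 0.0747 to 0.141 with any 1 library left out).

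**Figure D4:**
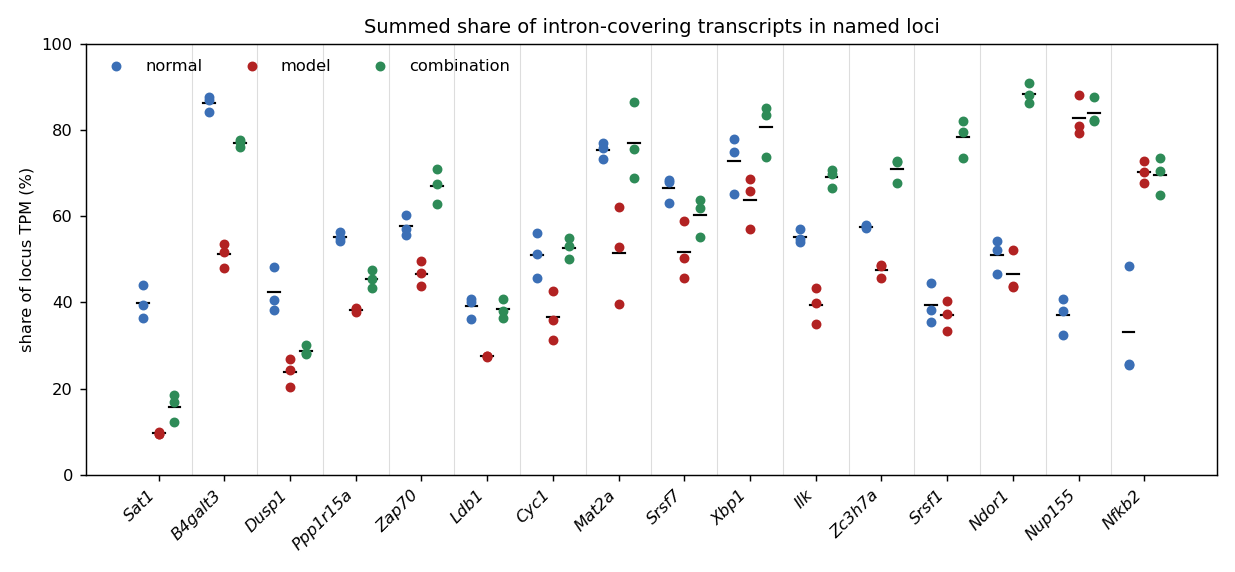
Summed share of locus TPM in percent held by intron-covering transcripts in 16 loci named in the text. Points are the 3 libraries of each group and black lines the group means; the combination points of Srsf1 (73.6% to 82.1%) and Ndor1 (86.2% to 90.8%) stand above the others, and the normal points of Sat1 (36.4% to 44.0%) above the others of that locus.

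Among single members the share passed limma's test in 3 transcripts between model and normal, 5 between combination and model and 6 between combination and normal, where 0.101%, 0.126% and 0.152% of all 23760 transcripts tested were called. Besides those of Sat1, Nup155, Srsf1 and Ndor1 they were 1 of Ankrd11, a chromatin regulator, and 1 of Son, a splicing cofactor of nuclear speckles. The Ankrd11 member, through the 1865-base intron 6, held 5.96%, 4.86% and 4.48% of the locus in the normal and 0.602%, 0.477% and 0.875% in the model libraries, without overlap (log2 ratio -1.99, adjusted p = 0.0406, and up to 0.1 without normal replicates 1, 2 or 3 or model replicates 1 or 3). With the other member through this intron the change was smaller. The 2 together held 17.8%, 24.1% and 20.4% in the normal and 13.2%, 11.8% and 17.7% in the model libraries. The Son member, through the 3886-base intron 8, which an exon of another locus overlaps, held 0.674%, 0.934% and 1.12% in the model and 4.25%, 4.10% and 5.001% in the combination libraries, also without overlap (log2 ratio 1.89, adjusted p = 0.0462, and 0.0698 to 0.123 with any 1 library left out). The count for model against normal was 15 without model replicate 2. That for combination against model was 10 without model replicate 2, 9 without combination replicate 3 and 1 without combination replicate 1, and that for combination against normal 13 without combination replicate 3, 10 without normal replicate 3 and 2 without combination replicate 1.

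The level of single members, on log2(TPM + 1), passed limma's test in 4, 6 and 7 transcripts in the same order. Of all 36340 transcripts, 0.201%, 0.127% and 0.173% were called. The members of Ndor1 and Srsf1 that rose in the combination group again passed the mean of 1 TPM only through that group. In the model group the members of Ctla4, an inhibitory receptor of T cells, Klrd1, a lectin receptor of natural killer and some T cells, and Tsc22d3, a glucocorticoid-induced gene, were lower, and 1 of Nfkb2, a subunit of NF-kB, was higher. The Ctla4 member covered intron 1 of 2, of 3073 bases, and was at 13.6, 13.5 and 15.2 TPM in the normal, 4.22, 1.24 and 1.45 TPM in the model and 8.05, 6.99 and 8.79 TPM in the combination libraries, with no overlap (model against normal, log2 fold change -2.30, adjusted p = 0.0458 by limma, and above 0.05 without normal replicates 1, 2 or 3 or model replicate 3, 0.136 at most). It made up 29.9% to 31.9% of its locus in the normal and 15.4% to 20.6% in the model libraries. The Tsc22d3 member was at 81.8, 159 and 83.0 TPM, then 17.9, 8.85 and 10.6 TPM, then 25.9, 18.2 and 31.9 TPM, and the Klrd1 member at 12.8, 9.34 and 11.1 TPM, then 2.14, 2.07 and 0.776 TPM, then 4.98, 4.04 and 4.54 TPM. In both, the normal libraries were the highest and the model libraries the lowest, with no overlap. The Tsc22d3 member made up 9.66% to 17.7% of its locus in the normal, 3.14% to 5.58% in the model and 7.82% to 9.34% in the combination libraries. The whole loci of Ctla4 and Tsc22d3 were also lower in the model than in the normal libraries. The whole Klrd1 locus fell too, from 31.2 to 8.21 TPM (limma, adjusted p = 0.0135), and the summed markers of cytotoxic and NK cells given above were lower in the model libraries, whose part was not tested. The count for model against normal was 133 of 5342 members without model replicate 2, where 1142 of all 36340 transcripts were called. It was 2 without normal replicate 1 or 2 and 0 without normal replicate 3.

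Casp4, an inflammatory caspase, had the 1 member of the 7 whose change in level between combination and normal passed the test with any 1 of the 6 libraries left out. This transcript through 2 introns was at 4.37, 2.62 and 2.90 TPM in the normal, 7.66, 5.90 and 7.12 TPM in the model and 22.1, 19.98 and 16.6 TPM in the combination libraries, in 3 groups without overlap (log2 fold change 2.27 ± 0.22, adjusted p = 0.0159 by limma, and 0.047 at most). Its share of the locus overlapped between normal and model, at 15.3% to 17.4% and 12.0% to 17.9%, and was 19.7% to 36.0% in the combination libraries. The whole Casp4 locus was also higher in the combination than in the normal libraries, so the level of the member did not change alone. Between combination and model, 4 members rose and 2 fell, and 14 rose and 3 fell when libraries were scaled by median ratios. Besides those of Srsf1 and Ndor1, these were a member of Ccdc47, which takes part in protein insertion at the endoplasmic reticulum, with 1.42, 2.26 and 1.44 TPM in the model and 17.6, 10.3 and 9.82 TPM in the combination libraries, and one of Gse1, a chromatin protein, with 9.05, 4.37 and 5.24 TPM in the model and 0, 0.0935 and 0 TPM in the combination libraries. In both genes the 2 groups lay apart. The adjusted p of limma was 0.0444 for Ccdc47 and 0.0423 for Gse1, and both were above 0.05 (0.111 and 0.11 at most) without model replicates 1 or 3 or combination replicates 1, 2 or 3. The count of levels for combination against model was 29 without model replicate 2, where 238 of all 36340 transcripts were called. It was 3 without combination replicate 2 and 2 without combination replicate 1. For combination against normal it was 22 without combination replicate 3, where 163 of all transcripts were called. It was 4 without normal replicate 3 or combination replicate 1 and 3 without normal replicate 1.

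In Nfkb2 the level of the whole locus rose from 34.5 TPM in the normal to 207 TPM in the model group (limma, adjusted p = 0.00755). Its 3 members, which covered intron 13 of 21 at chr1:266056533-266056882, held 48.4%, 25.6% and 25.6% of the locus in the normal, 72.8%, 67.7% and 70.4% in the model and 73.4%, 70.4% and 64.9% in the combination libraries, and their level was 26.2, 5.48 and 7.12 TPM, then 150, 103 and 184 TPM, then 219, 150 and 98.0 TPM. Model and combination libraries overlapped and lay above the normal ones. The adjusted p of the summed share in limma was 0.0816 between model and normal, with a log2 ratio higher by 2.25 ± 0.385.

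Xbp1, a transcription factor of the unfolded protein response, holds an intron that the enzyme Ern1 cuts out in the cytoplasm under stress, without the spliceosome. The reference set lists 26 bases as intron 4 of 5 (chr14:85757177-85757202), and the member that covers them held 78.0%, 75.03% and 65.2% of the locus in the normal, 68.6%, 65.8% and 57.1% in the model and 83.6%, 73.7% and 85.0% in the combination libraries. All 3 combination libraries lay above the model ones, and normal and model libraries overlapped. Neither difference passed limma's test (log2 ratio -0.55 ± 0.348, adjusted p = 0.51 for model against normal, and 1.16 ± 0.348, adjusted p = 0.202 for combination against model). The level of the locus rose from 21.0 to 49.0 TPM between normal and model (adjusted p = 0.0161) and was 20.8 TPM in the combination group.

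The lists of genes describe which loci made up the pattern; they were chosen with earlier results known, and Srsf1 was their only locus past limma's test of the summed share. Of 10 tested loci of immediate early genes and MAP kinase feedback, 7 lay entirely lower in the model than in the normal group and 0 entirely higher, with a median share of 32.3%, 20.2% and 28.7% in the normal, model and combination groups, beside 32.8%, 28.2% and 34.7% over all loci with a member. Over all tested loci with a member, 25.8% lay entirely lower and 3.58% entirely higher in that comparison, and the counts of all lists are to be read beside these shares. Dusp1, a phosphatase of MAP kinases, held 40.5%, 48.2% and 38.3% of its RNA in the transcript through its 373-base intron 2 in the normal, 20.3%, 24.4% and 26.8% in the model and 28.2%, 28.0% and 30.03% in the combination libraries. The 3 groups lay apart, and the adjusted p of limma was 0.0816 between model and normal. Klf6, an early response transcription factor, had 86.8%, 84.4% and 86.3%, then 82.7%, 78.8% and 77.5%, then 83.6%, 85.7% and 87.9%.

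T cell receptor and identity genes lay entirely lower in the model than in the normal group in 5 of 9 tested loci and entirely higher in 0, beside 25.8% and 3.58% of all tested loci with a member. Zap70, a kinase of the T cell receptor, held 57.03%, 60.3% and 55.6% in transcripts through the 324-base intron 7 in the normal, 49.6%, 46.8% and 43.8% in the model and 70.9%, 62.9% and 67.5% in the combination libraries. No 2 groups overlapped, and the adjusted p of limma was 0.206 between model and normal and 0.0832 between combination and model. In Ptprc, the phosphatase CD45, the share was small, at 3.26% to 5.82%, 2.90% to 4.496% and 7.46% to 9.67%, with the combination group above the others. Cd3e, a chain of the receptor, ranged from 2.49% to 56.0% with wide overlap in all groups through an intron that a reference exon also covers.

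In the unfolded protein and integrated stress response list 4 of 8 tested loci lay entirely lower and 1 entirely higher in the model than in the normal group, beside the same 25.8% and 3.58%. Ppp1r15a, which brings a phosphatase to the translation factor eIF2, had shares of 54.9%, 54.2% and 56.3%, then 38.8%, 38.4% and 37.8%, then 45.6%, 43.4% and 47.5%, with no overlap between groups (adjusted p = 0.0816 in limma for model against normal). In oxidative phosphorylation 7 of 18 loci and in the proteasome 4 of 8 lay entirely lower in the model group, with 0 entirely higher, and the other loci of these lists overlapped between the groups. Cyc1, a cytochrome of complex III, held 51.1%, 56.2% and 45.6%, then 31.3%, 36.0% and 42.7%, then 53.0%, 50.1% and 54.9%. Psmc4, an ATPase of the proteasome, held 50.3%, 49.7% and 50.8%, then 39.8%, 41.2% and 44.6%, then 52.3%, 49.96% and 49.2%. In both, normal and combination libraries overlapped and the model libraries lay below them. In the other lists 3 of 7 lay entirely lower and 1 higher for NF-kB, 3 of 11 lower for aminoacyl-tRNA synthetases, 2 of 6 for TGF-beta signalling, 1 of 6 for ribosomal proteins, and 0 of 5 for naive T cells and 0 of 13 for chromatin and transcription.

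Splicing and decay genes themselves carried many members. SR proteins and splicing kinases had members in 14 of 26 loci measured, hnRNP and related factors in 19 of 42, core spliceosome genes in 23 of 57 and decay genes in 18 of 37. In 73 of these loci tested, the share was entirely lower in the model than in the normal group in 26 and entirely higher in 5, beside 25.8% and 3.58% of all tested loci with a member. Between combination and model it was entirely higher in 27 and entirely lower in 2, beside 29.7% and 1.79%. In the SR list 13 of 14 loci had a higher mean in the combination than in the model group, and in the hnRNP list 16 of 19. In the core spliceosome list 15 of 23 did and in the decay list 13 of 17, beside 1931 of 2512 tested loci with a member. The median share over the hnRNP loci was 16.4%, 14.5% and 12.7% in the normal, 12.6%, 12.0% and 11.2% in the model and 23.3%, 15.6% and 21.1% in the combination libraries, with all 3 model libraries below the 6 others. By the mean share of each locus over a group, the hnRNP median was instead 11.7%, 13.2% and 21.8% in the normal, model and combination groups. The SR median was 28.5%, 29.65% and 38.3%, so the model group was not the lowest in either list. For core spliceosome genes it was 36.8%, 34.2% and 37.9%, and for decay genes 42.1%, 39.7% and 50.7%, with the model group lowest.

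Srsf7, an SR protein known to regulate itself through an alternative exon, held 68.4%, 67.9% and 63.1% of its RNA in the transcript through its 1200-base intron 5 in the normal, 45.6%, 50.4% and 58.8% in the model and 61.8%, 55.1% and 63.9% in the combination libraries. The model libraries lay below the normal ones and overlapped the combination ones. Clk1, a kinase of SR proteins with well-described retained introns, held 27.5%, 35.4% and 32.9%, then 29.3%, 40.5% and 36.8%, then 44.0%, 37.4% and 40.6%, with overlap between model and both other groups. Mat2a, which makes S-adenosylmethionine and is known for its last intron, held 73.3%, 75.9% and 76.9%, then 62.1%, 39.6% and 52.8%, then 86.6%, 68.8% and 75.6%. Here the model libraries lay below all others, and a reference exon also covers that last intron.

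The levels of splicing and decay genes were compared because their products act on introns. Of 164 such loci tested, 8 rose in the model against the normal group, where 5.37% of all 9982 loci did, and 2 fell, where 2.56% did, with a median log2 fold change of 0.18 beside 0.02 over all loci. Rbm38, an RNA-binding protein of blood cells, rose from 66.5, 53.7 and 65.2 TPM to 303, 324 and 671 TPM (log2 fold change 2.69 ± 0.346, adjusted p = 0.00747) and was at 128, 85.9 and 51.2 TPM in the combination libraries (adjusted p = 0.0129 against model). Rbm38 is also known from erythroid cells, whose markers were higher in the model libraries, and their part was not tested. Dhx9, a helicase, Sfpq and Sf3a2 of the spliceosome, and Casc3, Magohb, Upf3a and Eif4a3, which act with the exon junction complex or in decay, rose by 0.56 to 0.83 in log2. Pnn and Rsrp1, proteins of nuclear speckles, fell by 0.65 and 0.70.

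Between combination and model 3 of the 164 loci rose (Pnn, Rsrp1 and Sf3b1), where 3.43% of all loci rose, and 4 fell (Srsf5, Rnps1, Rbm38 and Raly), where 4.01% fell. Pnn was at 94.8, 91.4 and 79.7 TPM in the normal, 56.4, 62.3 and 49.4 TPM in the model and 99.7, 85.3 and 74.2 TPM in the combination libraries, so the model libraries lay below all others, as for the intron-covering share. Between combination and normal 4 rose (Sf3b1, Prpf18, Lsm8 and Skiv2l2), where 4.32% did, and 1 fell (Lsm2), where 3.57% did; with median-ratio scaling 10 rose and 7 fell. Sf3b1, which binds the branch site of introns, was at 185 to 206 TPM in the normal, 159 to 240 TPM in the model and 260 to 388 TPM in the combination libraries. Without model replicate 2 the counts were 37 for model against normal and 14 for combination against model, where 2558 and 1392 of all 9982 loci were called. With any 1 other library of the pair left out they were at most 2 and at most 6. For combination against normal there were 13 without combination replicate 3 and 0 without any 1 of the other 5. Of the calls named here, those of Rbm38 passed the test with any 1 library left out.

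Some members do not describe a retained intron in the usual sense. In 100 loci they held at least 95% of the TPM on average, in 809 (29.9%) at least 50% and in 316 less than 10%. The most abundant member, 1 of 2 transcripts of RGD1359290, averaged 1842 TPM and held 99.8% to 100% of its locus through a 93-base first intron. In Cxcr4, a chemokine receptor, the member covered introns of 5 and 45 bases, which a reference exon covers too, and held 64.8% in normal replicate 1 and 65.0% in combination replicate 2 but almost nothing in the other 7 libraries. In Rpl7a, a ribosomal protein gene, it held 97.8% in normal replicate 1, 68.9% in model replicate 2 and at most 1.23% elsewhere. In Ldb1, a transcription cofactor, the 2 members held 40.2%, 40.8% and 36.2%, then 27.4%, 27.6% and 27.5%, then 40.9%, 36.4% and 38.1%, with the model libraries lowest, and their last intron is overlapped by an exon of another locus.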

How the data were processed

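RNA of CD4+ T cells was sequenced by the authors from NEBNext Ultra libraries of Trizol RNA, per the labels' protocols; selection of poly(A) RNA and strand marking are not given in the sources used here. Reads were aligned with HISAT2 to rn6, per the submitters' processing notes, and StringTie 1.3.3b, per the file headers, gave estimates for 1 merged set of 80092 transcripts in every library. The deposited files give TPM, FPKM and coverage per transcript as text attributes, not counts, as the authors' run computed them. StringTie divides reads among overlapping transcripts, so shares of similar transcripts depend on that division.

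Exons were compared with reference introns in Python 3.11.15 (pandas 2.3.3, numpy 2.4.6). TPM as deposited was used. The share of a transcript was its percent of the locus TPM. limma 3.58.1 in R 4.3.3 tested log2((TPM + 0.5)/(rest of locus + 0.5)), where both averaged at least 1 TPM, and levels on log2(TPM + 1), with all 9 libraries, 1 coefficient per group, 6 residual degrees of freedom, an intensity trend, Benjamini-Hochberg adjustment over all transcripts or loci tested and a threshold of 0.05. A fold change on this scale understates that of low transcripts. Sums of a class of transcripts per locus were tested likewise, an analysis added after the single transcripts were seen. Values per library were compared by exact two-sided permutation over 20 arrangements. Figures were drawn with matplotlib 3.10.9.

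Loci were named by rule: members past the threshold with groups apart (10 in each direction), the 10 loci of highest member TPM, up to 3 per gene list, and a list of genes known for retained introns; loci past the threshold as sums and members past it in level were added. Members and the 20 lists were chosen with earlier results of these data known. On simulated data, with 200 changed in each of 3 rounds, shifts of 2 log2 units were recovered in 27.3% of transcript shares, 46.0% of levels and 33.3% of locus shares. Shifts of 4 were recovered in 59.3%, 81.3% and 68.7%, and 2.89%, 6.23% and 6.30% of calls were false. The simulation drew independent normal noise for each row with the observed spread of that row. It did not imitate shares that add up within a locus, so its rates need not hold for the calls made here. No genome of build rn6 was used, so no intron sequence is given. Alternatives are given in the closing section.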

Additional observations from a re-analysis of the deposited data

How the results depend on the processing

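The lower summed share of intron-covering transcripts in the model group kept its direction under each alternative run. The difference between model and normal ran from -5.71 to -3.13 points over the other summaries (the median over loci, locus limits of 1 and 10 TPM, introns of at least 60 bases, introns clear of reference exons or of other loci, no 10 largest loci, no loci at 95% or more) and from -4.51 to -3.16 without 1 library; that between combination and model ran from 4.09 to 7.56 and from 4.14 to 5.31. With 3 libraries a group no exact p below 0.1 was possible.

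The counts of transcripts and loci past limma's threshold depended on the settings, and the causes were not tested. Shares of single members, 3, 5 and 6 called for model against normal, combination against model and combination against normal, came to 1 for the first with a pseudocount of 2, to 8 for the second with loci of at least 10 TPM, and to 7 and 10 for the first and second when only the groups compared were fitted. Without 1 library they ran from 2 to 15, 1 to 10 and 2 to 13. At the highest of these counts, 103, 67 and 75 of all 23760 transcripts were called. Levels of members, 4, 6 and 7 called, came to 40, 17 and 16 with median-ratio scaling, where 287, 107 and 101 of all 36340 transcripts were called. Of the 40, 10 were higher and 30 lower, against 1 and 3 as deposited. The first count came to 8 with a pseudocount of 0.1, and that for combination against normal to 14 with only the groups compared. The counts of levels ran from 0 to 133, 2 to 29 and 3 to 22 without 1 library. Levels of splicing and decay genes, 10, 7 and 5 called, came to 20, 16 and 17 with median-ratio scaling, where 1414, 1458 and 1500 of all 9982 loci were called. These levels came to 0, 2 and 0 with no filter on low values, and ran from 1 to 37, 1 to 14 and 0 to 13 without 1 library. Summed shares per locus, 2, 5 and 5 called, came to 6 for the first and 0 for the second with only the groups compared and to 3 for both comparisons of the combination group with no trend, and ran from 0 to 19, 0 to 8 and 0 to 5 without 1 library.

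Groups shared replicate numbers, which the main fits did not take as pairs. Deviations of same-numbered libraries correlated by -0.024 to 0.0388. With the replicate number as a block in limma, 0 shares of members, 0 levels of members and 0 summed shares were called in each comparison, and 3, 2 and 0 levels of splicing and decay genes. At an unadjusted p under 0.05 the block gave 49 loci higher and 437 lower in summed share for model against normal, 496 and 24 for combination against model and 181 and 78 for combination against normal. For single shares it gave 154 and 574, 621 and 105, and 308 and 175, for levels of members 305 and 462, 744 and 174, and 558 and 218, and for splicing and decay genes between combination and normal 21 and 10. The summed share over all loci had an exact p of 0.25 in each comparison with the block, the smallest that 3 pairs allow. In shares of single transcripts, 8 of 9 libraries nevertheless correlated best with their own number, so whether the numbers mark pairs cannot be told from these values.

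Of the named calls, 0 of 14 shares, 17 levels and 12 summed shares of members and 1 of 22 levels of splicing and decay genes passed under every alternative run, and none changed direction. Read counts were not derived, so counting error is not part of any interval. Members of low TPM rest on few reads, and in Cxcr4 and Rpl7a single libraries differed widely from the rest of their group, of which the cause was not tested.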
